A study of Ovis aries with 15 samples.

Results

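Tight junctions are the seals between neighbouring epithelial cells, and in the mammary alveolus they decide whether milk components can leak back between cells. Claudins and occludin are proteins that span the membrane, claudins form the strands that set the charge and size selectivity of the seal, F11R (junctional adhesion molecule A) is an immunoglobulin-like adhesion protein of the same contact, and TJP1 (ZO-1) and TJP3 (ZO-3) are cytoplasmic scaffolds that tie these proteins to actin. In the mammary gland of pregnant animals the junctions between alveolar cells are leaky, and they close around parturition when copious milk secretion begins.

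The genes described here were 9 tight junction genes taken by name from a table of 24691 features measured in the mammary gland of Romney ewes: the claudins CLDN1, CLDN3, CLDN4, CLDN7 and CLDN8, occludin (OCLN), F11R, TJP1 and TJP3. By symbol 7 of the 9 were present, and TJP1 and TJP3 were read from the rows named ZO1 and ZO3, which lie between the same neighbouring genes as TJP1 (KLF13 and TM2D3) and TJP3 (APBA3 and PIP5K1C) in the RefSeq annotation of sheep. Parenchyma was taken by needle biopsy from 2-year-old primiparous ewes at day 135 of gestation (9 libraries) and again at day 15 post partum (6 libraries), and each library was a pool of RNA from several ewes. The ewes differed in the feed given to their own dams from day 20 to day 50 of gestation, which was below maintenance (LM), at maintenance (MM) or ad libitum (HM), after which the dams of all groups were fed at maintenance to day 140. Each dam group had 3 late pregnancy and 2 lactation libraries. Pools of late pregnancy held 3 ewes each; for those of lactation the labels say 2 ewes and the study's methods say 3, and which pools share an ewe was not given, so that the p-values below describe the spread between pools.

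The late pregnancy libraries had between 7597938 and 19823166 reads on genes, with a median of 16387838, and those of lactation between 10352962 and 25679416. The biopsies held more than epithelium. Of the marker genes tested, 4 of 8 luminal markers were higher in lactation and 1 was lower, with a summed level of 1821 to 2164 CPM (reads scaled to a fixed library total) in late pregnancy and 2549 to 2827 in lactation, although with upper quartile scaling 2 were higher and 3 were lower. ELF5 (mean of 629 CPM in late pregnancy and 1100 in lactation) and KRT19 (622 and 947) carried this sum, while KRT7 was lower (262 and 121). Among myoepithelial markers 3 of 6 were higher and 2 lower, at 554 to 626 and 525 to 778 CPM. Lower in lactation were 3 of 4 fibroblast markers (353 to 627 CPM in late pregnancy, 225 to 372 in lactation), 3 of 4 endothelial markers (148 to 199.9 and 93.1 to 131), 4 of 5 macrophage markers (137 to 186.0 and 64.2 to 95.1) and 6 of 6 T cell markers (41.8 to 66.9 and 14.1 to 21.2). Of 4 adipocyte markers 1 was higher, LPL, which carried their sum from 234 to 443 CPM up to 1495 to 1818. Of 3 B and plasma cell markers 2 were higher and 1 was lower (28.8 to 75.2 and 61.2 to 151 CPM), and of 2 neutrophil markers 1 was higher (0.545 to 1.32 and 3.96 to 16.2 CPM). Of all tested genes 68.4% were called in the comparison described next, 33.1% higher and 35.2% lower in lactation. The counts of called markers are to be read beside these shares. Every marker in the table had reads. In such bulk tissue fewer cells of a type and less RNA per cell cannot be told apart, and the part of cell composition in the results below was not tested.

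Lactation and late pregnancy were compared in an edgeR quasi-likelihood test over all 15 libraries, with library sizes scaled by the trimmed mean of M values (TMM) and p-values adjusted over 13345 tested genes. Of the 9 genes, CLDN7 and OCLN rose in lactation, CLDN8, CLDN4 and F11R fell, and CLDN3, CLDN1, TJP1 and TJP3 did not pass the test. Of all tested genes 68.4% were called, 33.1% higher and 35.2% lower, so the 5 of 9 called here are not more than the background. The state ranges of 2 of the 9 genes, CLDN7 and CLDN8, did not overlap, against 40.2% of all tested genes. Only CLDN8 was called with a change of more than 2-fold, which was the case for 22.1% of all tested genes. The median log2 change was -0.02 over the 9 genes and -0.03 over all tested genes. The direction depends on the scaling: with library size alone the median gene was at -1.94 and all 9 genes were lower, whereas with TMM computed without 7 milk protein genes the calls were those given here.

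**Figure D1:**
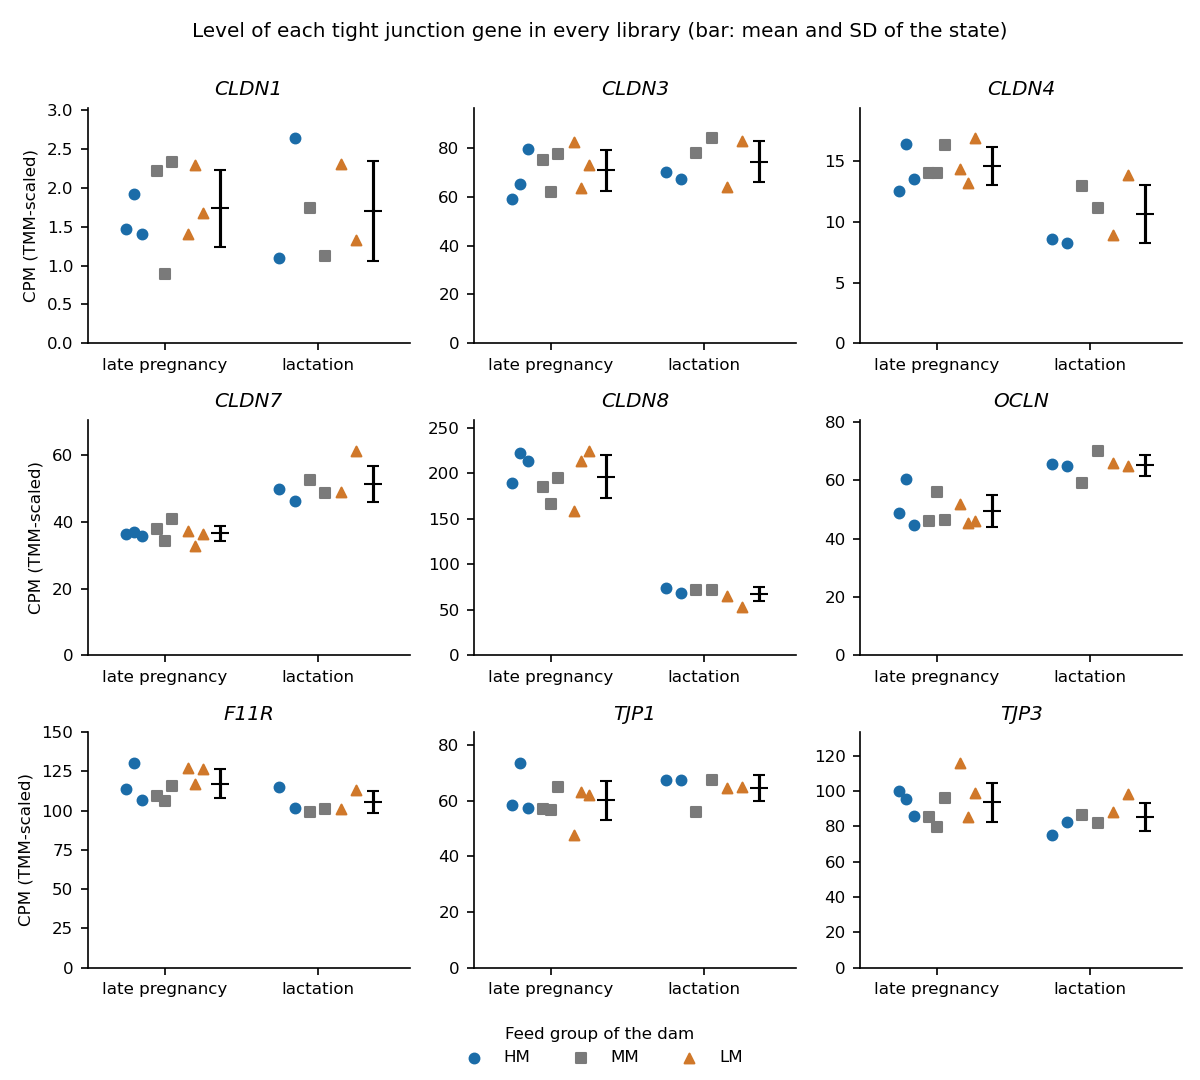
Level of each of the 9 genes in CPM with TMM-scaled library sizes (vertical axes, linear from 0) in the 9 late pregnancy and 6 lactation libraries, one point per library, with the feed group of the dam shown by colour and shape and the mean and SD of each state beside the points. The state ranges are apart for CLDN8 (158 to 225 against 53.1 to 73.8) and for CLDN7 (32.7 to 41.1 against 46.2 to 61.5, higher in lactation with TMM and lower with library size alone), and overlap for the other 7 genes.

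CLDN8, a claudin of tight epithelia known for limiting the passage of cations in the distal nephron, showed the largest change of the 9 genes. Its single exon of 2067 bases lies at 123914931 to 123916997 on chromosome 1, as the deposited table gives it for sheep (the processing notes name Oar_v3.1, and the study's methods a later version). Its level was 158 CPM in the lowest, 195 in the median and 225 in the highest late pregnancy library. In lactation it was 53.1, 70.0 and 73.8 CPM. Every lactation library was therefore below every late pregnancy library, with the highest lactation value well under the lowest late pregnancy value. CLDN8 fell 2.91-fold, a log2 change of -1.54 ± 0.09 (SE, 95% interval -1.73 to -1.35, edgeR adjusted p = 7.5e-12). The reads behind these levels were 2431 to 6314 per late pregnancy library and 279 to 827 per lactation library.

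CLDN7, a claudin found along the basolateral membrane as well as in the junction, went the other way. The gene has 4 exons of 636 bases in all at 26601004 to 26602523 on chromosome 11. Its lowest, median and highest levels were 32.7, 36.6 and 41.1 CPM in late pregnancy. In lactation they were 46.2, 49.4 and 61.5 CPM. All 6 lactation libraries were above all 9 late pregnancy libraries, and the widest gap within lactation was to the LM library at 61.5 CPM. CLDN7 rose 1.40-fold, by 0.49 ± 0.06 on the log2 scale (edgeR adjusted p = 7.8e-07), on 405 to 1033 reads per late pregnancy library and 227 to 604 per lactation library. Under library size alone its log2 difference was -1.42, above the median gene at -1.94, and in quantile-normalized values it was 0.21 (limma adjusted p = 0.0029).

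CLDN3 and CLDN4, closely related claudins and both receptors of Clostridium perfringens enterotoxin, are neighbours on chromosome 24, with 29.7 kb between them. CLDN3 is a single exon of 1233 bases at 33431747 to 33432979 and CLDN4 a single annotated exon of 497 bases at 33401505 to 33402001. CLDN3 was at 59.1, 73.1 and 82.4 CPM in the lowest, median and highest late pregnancy library, and at 63.9, 74.0 and 84.0 CPM in lactation. The ranges lay almost on top of each other. Its log2 difference was 0.07 (95% interval -0.10 to 0.24, edgeR adjusted p = 0.453), and the sign turned in the authors' quantile-normalized values (-0.21, limma adjusted p = 0.0226), with upper quartile scaling (-0.08) and with library size alone (-1.83).

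CLDN4 was at 12.5, 14.1 and 16.9 CPM in late pregnancy. In lactation it was at 8.26, 10.1 and 13.9 CPM. The ranges overlapped, with 4 of 6 lactation libraries below every late pregnancy library and the highest lactation values in an LM and an MM library. CLDN4 fell 1.35-fold, a log2 change of -0.44 ± 0.11 (edgeR adjusted p = 0.0019). Within each dam group on its own, the call held in HM (-0.74) but not in MM (-0.28, edgeR adjusted p = 0.121) or LM (-0.39, edgeR adjusted p = 0.154).

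CLDN1, which in mice is required for the water barrier of the epidermis, was by far the scarcest of the 9. Its 4 exons of 636 bases lie at 195280159 to 195295348 on chromosome 1. It had 18 to 68 reads per late pregnancy library and 5 to 20 per lactation library. Its level was 0.891, 1.67 and 2.33 CPM in late pregnancy and 1.10, 1.54 and 2.64 CPM in lactation. The ranges overlapped nearly completely, and at this depth the interval of the log2 difference ran from -0.54 to 0.50 around -0.02 (edgeR adjusted p = 0.956).

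OCLN, the first membrane protein of the tight junction to be identified, has 9 exons of 2579 bases at 10210317 to 10250681 on chromosome 16. It was at 44.6, 46.6 and 60.3 CPM in the lowest, median and highest late pregnancy library. In lactation it was at 59.2, 65.4 and 70.2 CPM. Of the lactation libraries 5 of 6 were above every late pregnancy library, and the ranges met only where an HM late pregnancy library at 60.3 CPM passed an MM lactation library at 59.2 CPM. OCLN rose 1.32-fold, by 0.40 ± 0.07 on the log2 scale (edgeR adjusted p = 3.3e-05), whereas its log2 difference was 0.25 with upper quartile scaling (edgeR adjusted p = 0.0024), 0.20 in quantile-normalized values (limma adjusted p = 0.0091) and -1.51 under library size alone.

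F11R has 10 exons of 3121 bases at 110563314 to 110586920 on chromosome 1. It was at 106, 115 and 131 CPM in late pregnancy. In lactation it was at 98.9, 102 and 115 CPM. Of the lactation libraries 4 of 6 lay below every late pregnancy library and the other 2 within their range. F11R fell 1.11-fold, a log2 change of -0.16 ± 0.06 (edgeR adjusted p = 0.0256). This call was lost when any 1 of 4 lactation libraries was left out (HM 2, LM 1, MM 1 or MM 2, edgeR adjusted p of 0.05003, 0.0552, 0.0635 and 0.0555), and within no dam group on its own did it pass the test. With upper quartile scaling the change was -0.30 (edgeR adjusted p = 1.1e-04) and in quantile-normalized values -0.37 (limma adjusted p = 1.3e-05).

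Neither scaffold passed the test. TJP1, of 27 exons and 5265 bases at 27453888 to 27522438 on chromosome 18, was at 47.8, 58.6 and 73.7 CPM in the lowest, median and highest late pregnancy library and at 55.9, 66.2 and 67.7 CPM in lactation. All lactation values lay inside the late pregnancy range. Its log2 difference was 0.10 (95% interval -0.05 to 0.26, edgeR adjusted p = 0.228), and it was -0.0024 in quantile-normalized values, -0.05 with upper quartile scaling and -1.81 with library size alone.

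TJP3, of 22 exons and 2725 bases at 17784194 to 17803628 on chromosome 5, was at 79.6, 95.9 and 116 CPM in late pregnancy and at 75.4, 84.4 and 98.4 CPM in lactation. Only 1 lactation library was below all late pregnancy libraries. Its log2 difference of -0.13 (95% interval -0.30 to 0.03, edgeR adjusted p = 0.125) did not pass the test here, but did with upper quartile scaling (-0.28, edgeR adjusted p = 0.0023) and in the quantile-normalized values (-0.34, limma adjusted p = 3.2e-04).

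A level can be compared between genes only per exon length, for which RPKM (reads per kilobase of exon, scaled to library size by TMM) were used. In late pregnancy CLDN8 stood first at 95 ± 11.6 RPKM (SD, n = 9) and above the next gene in 9 of 9 libraries. CLDN7 at 57.5 ± 3.67 and CLDN3 at 57.5 ± 6.88 followed and could not be ordered, with CLDN7 above CLDN3 in 4 of 9 libraries. F11R at 37.5, TJP3 at 34.4 and CLDN4 at 29.4 RPKM came next with overlapping ranges between neighbours, and OCLN at 19.2, TJP1 at 11.4 and CLDN1 at 2.73 RPKM closed the order with ranges apart.

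In lactation the order was led by CLDN7 at 80.7 ± 8.45 RPKM (SD, n = 6) and CLDN3 at 60.3 ± 6.83, each above the next gene in 6 of 6 libraries and with ranges apart. F11R at 33.7, CLDN8 at 32.6 and TJP3 at 31.4 RPKM formed a group in which F11R was above CLDN8 in 3 of 6 libraries and CLDN8 above TJP3 in 4 of 6. OCLN at 25.3 and CLDN4 at 21.4 RPKM overlapped, whereas in late pregnancy CLDN4 had been above OCLN in 9 of 9 libraries. TJP1 at 12.3 and CLDN1 at 2.68 RPKM again came last. The annotated exons of CLDN1, CLDN4 and CLDN7 are short (636, 497 and 636 bases), and the order of genes and the claudin shares below rest on these annotated lengths, which the change of a single gene does not.

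**Figure D2:**
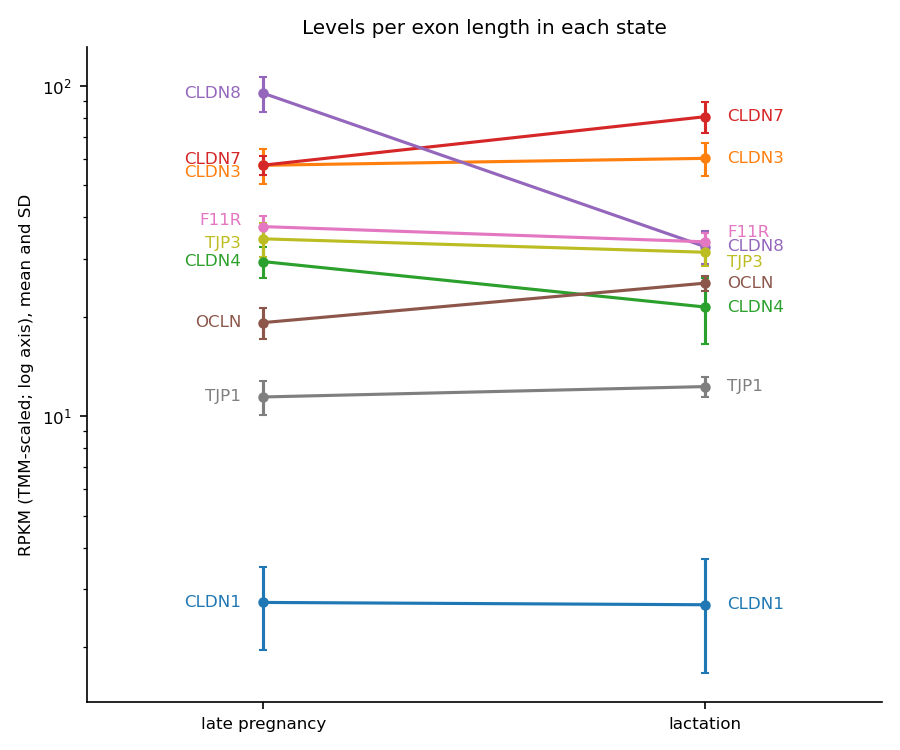
Mean RPKM with TMM-scaled library sizes (vertical axis, logarithmic) of the 9 genes in late pregnancy (n = 9) and lactation (n = 6), with SD as error bars and a line joining both states of a gene. CLDN8 goes from rank 1 (95) to rank 4 (32.6) while CLDN7 goes from 57.5 to 80.7; the slopes of CLDN7, OCLN, CLDN3 and TJP1 point up with TMM and down with library size alone, and those of CLDN3 and TJP1 also point down with upper quartile scaling and in quantile-normalized values.

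Which claudins made up the junction transcripts was examined as shares of the summed RPKM of the 5 claudins, a measure within a library that needs no scaling between libraries. These 5 made up 97.4% of the RPKM of all 20 claudin genes in the table in late pregnancy and 96.8% in lactation. CLDN8 held 32.8, 40.7 and 43.6% of the sum in the lowest, median and highest late pregnancy library and 11.7, 17.2 and 18.8% in lactation. For CLDN7 the lowest, median and highest shares were 21.7, 24.7 and 25.6% before birth, against 37.7, 40.7 and 44.0% during lactation. Neither pair of ranges overlapped. By share, the leading claudin was CLDN8 in every late pregnancy library and CLDN7 in every lactation library. The lead of CLDN7 rests on its short annotated length. In reads not divided by exon length, CLDN3 (319 to 896 per lactation library) was above CLDN7 (227 to 604) in every lactation library. CLDN8 (279 to 827) was also above CLDN7 in every lactation library except LM 2 (279 against 323).

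The CLDN8 share was 22.6 percentage points lower in lactation on average and that of CLDN7 17.0 points higher (exact two-sided permutation test over libraries, p = 0.0004 for each, the smallest p that the 5005 splits allow). The CLDN3 share went from 23.8 ± 2.48% (SD, n = 9) to 30.5 ± 1.63% (SD, n = 6), a difference of 6.72 points (exact permutation p = 0.0008), with ranges that met at 28.5 to 28.7%. CLDN4 held 12.1 ± 0.918% and 10.7 ± 1.61% (exact permutation p = 0.0535) and CLDN1 1.12 ± 0.294% and 1.39 ± 0.611% (exact permutation p = 0.283). Because shares sum to a whole, a fall of one claudin raises the others. The summed RPKM of the 5 claudins was 242 ± 16.3 in late pregnancy and 198 ± 15.7 in lactation, and without CLDN8 it was 147 ± 11.3 and 165 ± 17.7. In quantile-normalized RPKM the sum without CLDN8 pointed the other way, at 157 ± 12.1 and 148 ± 14.4.

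**Figure D3:**
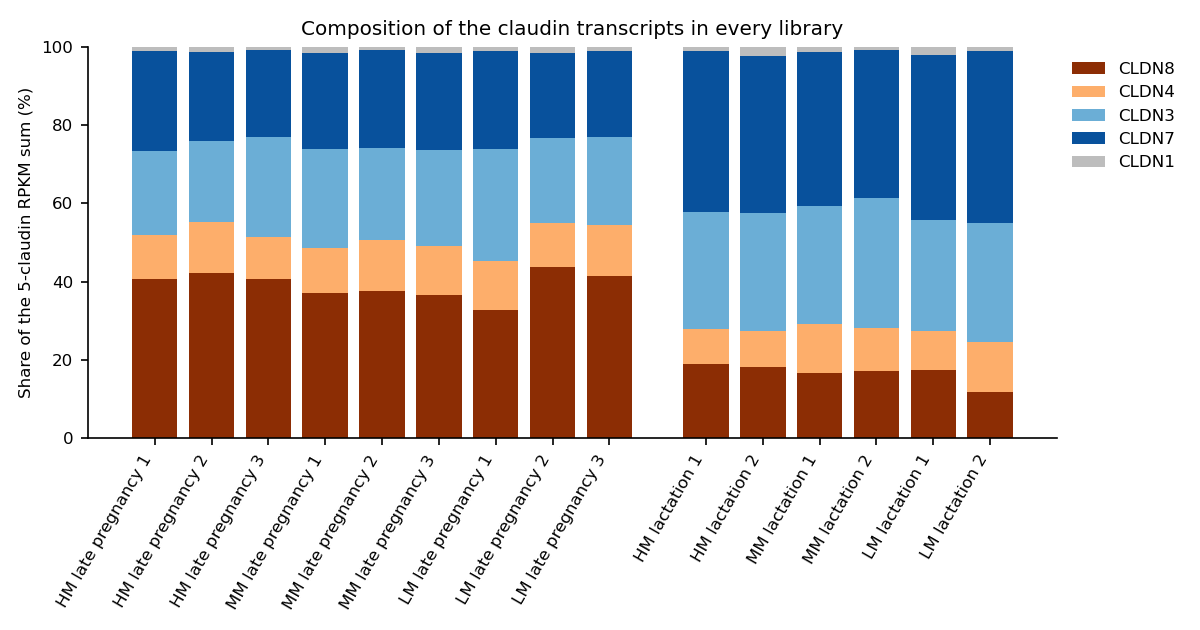
Share of each claudin in the summed RPKM of the 5 claudins (vertical axis, percent) in each of the 15 libraries (one bar per library, late pregnancy left and lactation right). CLDN8 takes 32.8 to 43.6% of each late pregnancy bar and 11.7 to 18.8% of each lactation bar, and CLDN7 takes 21.7 to 25.6% and 37.7 to 44.0%.

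Ratios between 2 genes in the same library likewise need no scaling. Of the 36 pairs among the 9 genes, 15 had state ranges that did not overlap, and these held all 8 pairs with CLDN8. Among all pairs of the genes that had reads in every library this share was 40.7%, so the number of pairs is near the background. CLDN7 over CLDN8 was 0.498, 0.628 and 0.767 in the lowest, median and highest late pregnancy library and 2.20, 2.29 and 3.76 in lactation. Which gene of a pair is higher by such a ratio rests on the annotated exon lengths, whereas the change between the states does not. CLDN4 over CLDN7 spanned 0.439 to 0.591 before birth and 0.220 to 0.316 after it, and CLDN3 over its neighbour CLDN4 was 1.60 to 2.37 and 2.41 to 3.30. CLDN7 was thus higher in lactation relative to CLDN8 and to CLDN4, and CLDN3 relative to CLDN4. OCLN over F11R went from 0.440 to 0.638 up to 0.692 to 0.840, without overlap, while the ranges of F11R over TJP1, 2.99 to 4.50 and 2.52 to 2.99, all but touched.

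Each gene was also set against an epithelial reference, the geometric mean RPKM of EPCAM, CDH1, KRT8, KRT18, KRT19 and KRT7 in the same library. The reference itself was at 51.1 to 77.9 RPKM in late pregnancy and 60.4 to 74.5 in lactation, and its log2 mean differed by 0.05, but its genes did not move alike: KRT19 rose by 0.61, EPCAM by 0.30 and KRT18 by 0.43, and KRT7 fell by 1.12. The log2 ratio of CLDN8 to the reference was 1.60 lower in lactation, without overlap of the states (exact permutation p = 0.0004, adjusted p over all genes = 0.0014). CLDN4 was 0.53 lower (exact permutation adjusted p = 0.0033) and F11R 0.20 lower (0.0207), while CLDN7 was 0.43 higher (0.0024) and OCLN 0.35 higher (0.0227). These 5 of 9 stood against 60.1% of the 12766 genes that passed the same test. The ratio of CLDN3 differed by 0.02, TJP1 by 0.06, CLDN1 by -0.10 and TJP3 by -0.18 (exact permutation adjusted p of 0.882, 0.718, 0.707 and 0.0510). TJP3 passed with EPCAM and CDH1 alone as reference (-0.22, exact permutation adjusted p = 0.0406), in quantile-normalized RPKM (-0.26, 0.0066) and without any 1 of 4 libraries (the lactation library MM 2 or the late pregnancy libraries LM 2, MM 1 or MM 3). With keratins alone as reference OCLN and F11R no longer passed (adjusted p of 0.0586 and 0.162), and without the lactation library MM 2 OCLN did not pass (adjusted p = 0.0512).

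Reads on introns can come from RNA not yet spliced and are not used in the exon counts. Of the 9 genes 6 have annotated introns, and 5 had enough intron reads to be tested. OCLN rose in intron reads by 0.65 ± 0.14 on the log2 scale (edgeR adjusted p = 3.3e-04), as in exon reads, with 24 to 75 reads per late pregnancy library and 16 to 47 per lactation library. TJP3 fell by 0.33 ± 0.08 (edgeR adjusted p = 0.0013). Of all 10344 genes tested on introns 58.0% were called, 29.0% higher and 29.0% lower. TJP3 had intron reads amounting to 59.1% of its exon reads in late pregnancy and 54.9% in lactation, far more than OCLN (5.11% and 6.44%), and such a share also counts exons missing from the annotation.

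TJP1 intron reads did not differ in the test (0.06, 95% interval -0.11 to 0.23, edgeR adjusted p = 0.547), and neither did those of F11R (0.36, edgeR adjusted p = 0.125). CLDN7, which rose in exon reads, was at -0.47 in intron reads (95% interval -1.05 to 0.12, edgeR adjusted p = 0.161) on 3 to 20 reads per lactation library; without the lactation library MM 1 it was at -0.90 (edgeR adjusted p = 0.0149). CLDN1 had 0 to 11 intron reads per library and was not tested. CLDN3, CLDN4 and CLDN8 are annotated with 1 exon and have no such readout.

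**Figure D4:**
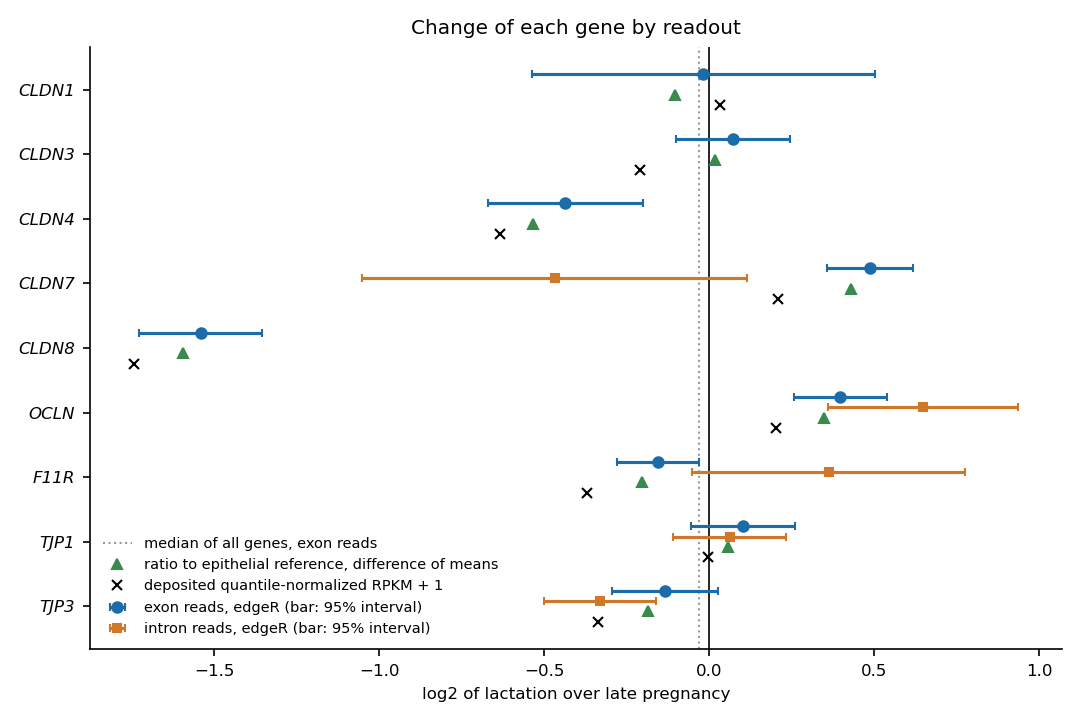
Log2 of lactation over late pregnancy (horizontal axis) for the 9 genes from exon reads and from intron reads (edgeR, bars are 95% intervals), as ratio to the epithelial reference, and in the quantile-normalized RPKM plus 1 that the authors deposited. CLDN8 lies between -1.54 and -1.74 and CLDN7 and OCLN lie above 0 in all readouts but the CLDN7 intron reads; CLDN3 and TJP1 are above 0 in exon reads and below 0 in quantile-normalized values, and CLDN1 is below 0 in exon reads and above 0 in quantile-normalized values. With library size alone, which is not plotted, all 9 exon values are below 0.

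The feed of the ewes' dams was compared next. Over the 9 late pregnancy libraries an edgeR test of the 3 dam groups called 0 of 13747 genes (0.0%), with 571 at an unadjusted p under 0.05, and DESeq2 called 20. None of the 9 genes was called by either tool, and the smallest unadjusted p among them was 0.192 in edgeR, for F11R. CLDN8 was at 208 ± 17.1, 182 ± 14.4 and 199 ± 35.7 CPM (SD, n = 3 each) in HM, MM and LM, and F11R at 117 ± 12.2, 110 ± 4.66 and 124 ± 5.83. The CLDN8 ranges of the 3 groups overlapped, whereas all 3 LM libraries were above all 3 MM libraries in F11R, whose difference did not pass the test.

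Whether the change to lactation differed between dam groups was tested as an interaction, which called 0 of 13345 genes (0.0%) in edgeR, with 876 at an unadjusted p under 0.05, and 19 in DESeq2. None of the 9 genes was among them, and CLDN8 had the smallest unadjusted p in edgeR, at 0.157. Taken within each group, the log2 change of CLDN8 was -1.55 in HM, -1.34 in MM and -1.73 in LM. In lactation CLDN8 stood at 68.4 and 73.8 CPM in the HM libraries, 71.6 and 72.0 in MM, and 53.1 and 65.2 in LM. CLDN7 was 0.40, 0.43 and 0.64 higher and OCLN 0.36, 0.39 and 0.47 higher in HM, MM and LM, and each of these 3 genes passed the edgeR test within each dam group. Over all libraries 68.4% of tested genes were called. The share within each dam group is not given here, so passing there cannot be read as particular to these 3 genes.

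The remaining claudins in the table were scarce. Of 18 others sought, 15 were in the table, 5 had no reads in any library and 4 could be tested. CLDN5, CLDN22 and CLDN24 were not in the table under these names, so their levels are not known here. Of the 4 tested, CLDN10, a channel-forming claudin, fell. CLDN10 was at 1.35 ± 0.592 CPM in late pregnancy (SD, n = 9) and 0.404 ± 0.232 in lactation (SD, n = 6). Its log2 change was -1.66 (edgeR adjusted p = 0.0013), on at most 51 reads per late pregnancy library and 6 per lactation library. In quantile-normalized values it was -0.55 (limma adjusted p = 0.0018). The other 3 tested were CLDN11, CLDN12 and CLDN15, at -0.26, 0.36 and -0.48 (edgeR adjusted p of 0.533, 0.0513 and 0.210). The median of the 4 was -0.37.

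Of 30 other tight junction genes tested, 13 were higher in lactation and 9 lower, with a median log2 change of 0.01, and the 22 called of 30 are near the 68.4% of all tested genes. The counts were 11 and 11 with upper quartile scaling and 0 and 30 with library size alone. MARVELD2 (tricellulin, the occludin relative at corners where 3 cells meet) was at 3.58 to 6.12 CPM in late pregnancy and 9.02 to 11.6 in lactation, a rise of 1.08 (edgeR adjusted p = 3.0e-08). It is the next tested gene after OCLN on chromosome 16, at a distance of 53.7 kb, so the 2 neighbouring genes of this protein family both rose. AMOTL1, of the angiomotin family, rose by 1.08 and CSDA (a Y-box transcription factor that binds ZO-1) by 0.97. AMOTL2, of the same family as AMOTL1, fell by 1.32, JAM3, the relative of F11R, by 0.88, and ARHGEF2 (a RhoA activator held at the junction) by 0.87. Except for the risers under library size alone, each of these 6 kept its sign under every scaling tried.

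Of 19 adherens junction and desmosome genes 8 were higher and 6 lower (median -0.06; 6 and 9 with upper quartile scaling), 14 called against 68.4% of all tested genes. The desmosomal plaque protein PKP2 rose by 2.08 and the nectins PVRL1 and PVRL2 by 1.54 and 1.07, while P-cadherin (CDH3), a cadherin of myoepithelial cells, fell 7.12-fold, plakoglobin (JUP) 2.83-fold and the nectin PVRL4 2.27-fold. Of these 3 risers PKP2 alone stayed above 0 with library size alone (0.18). E-cadherin (CDH1) did not pass the test (-0.11, edgeR adjusted p = 0.135).

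Of 20 regulators of epithelial junctions 5 were higher and 8 lower (median -0.13; 4 and 10 with upper quartile scaling), 13 called against the same 68.4%. The transcription factor KLF5 rose by 1.97, the kinase WNK4, which phosphorylates claudins, by 1.85 and GRHL2, an activator of claudin genes, by 1.00, whereas WNK4 and GRHL2 were at -0.04 and -0.91 with library size alone. GRHL1, a relative of GRHL2, was at 139 to 176 CPM in late pregnancy and 51.8 to 68.5 in lactation and fell by 1.46. OVOL2, a repressor of mesenchymal genes, fell by 1.29.

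**Figure D5:**
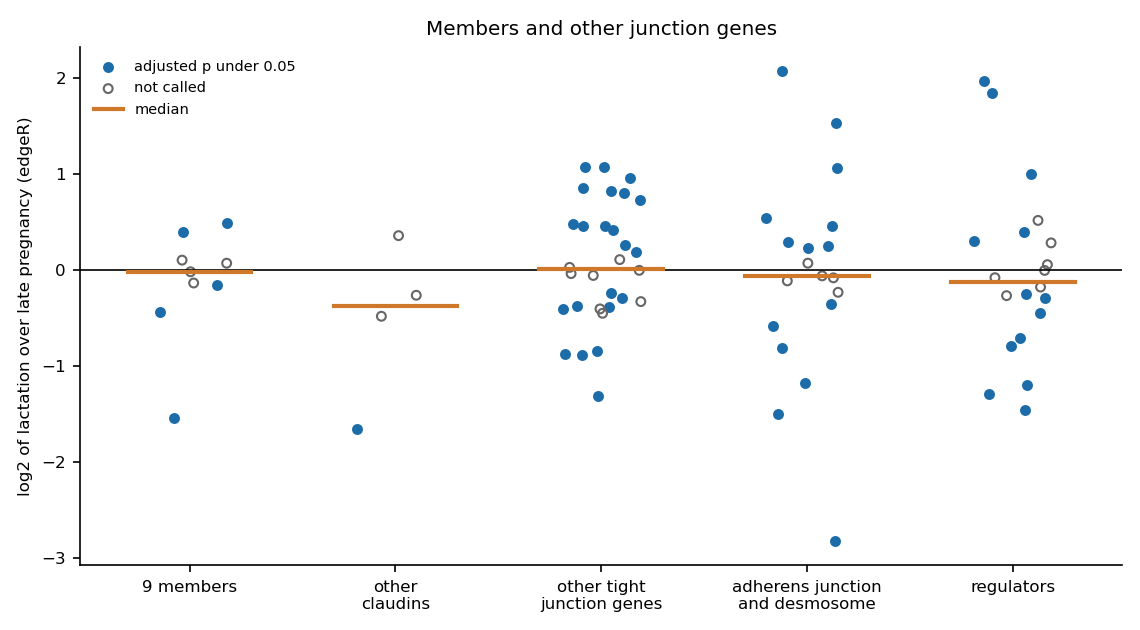
Log2 of lactation over late pregnancy from edgeR (vertical axis) for the 9 genes and for each tested gene of 4 further lists, one point per gene, filled where the adjusted p is under 0.05, with the list median as a bar. Called genes lie on both sides of 0 in the 9 genes and in 3 of the 4 lists, and the medians run from -0.37 (other claudins) to 0.01 (other tight junction genes); with library size alone every list median is below -1.9.

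Of the 16 nearest tested genes that are not members themselves 10 were called, 7 higher and 3 lower, against 68.4% of all tested genes. CLDN8 is far from other tested genes, with 984 kb to LOC101103772 before it and 1050 kb to BACH1 after it. LOC101103772 fell by 6.23 (edgeR adjusted p = 0.0049), and the read counts behind this fall are not given here. BACH1 rose by 1.12. Beside CLDN1, IL1RAP fell by 1.34 and LEPREL1 by 0.61. ELP5, 315 bases from CLDN7, rose by 0.31 (edgeR adjusted p = 3.1e-05). PIP5K1C, 18.2 kb after TJP3, rose by 1.01, and APBA3, 214 bases before TJP3, by 0.28. CLDN4 fell while CLDN3 beside it did not pass the test.

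Within states, genes can be ordered by how closely they followed one another from library to library. After subtraction of the state means, Pearson's r of log2(CPM + 1) over the 15 libraries was 0.71 between CLDN4 and CLDN7, 0.57 between CLDN3 and CLDN4 and 0.54 between CLDN3 and CLDN7, and it was 0.55 between CLDN7 and TJP3 and 0.53 between F11R and TJP3. CLDN8 was at -0.43 with CLDN7, -0.17 with CLDN3, -0.11 with CLDN4 and 0.26 with CLDN1, and was closest to TJP1 among the 9 at 0.53. These values share the scaling and depth of each library and are given as a description. Among all tested genes the closest to CLDN8 were ARL6 (0.87), SYNE1 (0.87) and CD302 (0.85), and the closest to CLDN7 were SLC27A1 (0.84), HSPB2 (0.81) and KLHDC8B (0.81). These r values, and those of the next paragraph, are the highest out of all tested genes. Over 15 libraries the highest of so many can be this large between unrelated genes, and whether they exceed that was not tested.

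The closest to CLDN3 were SLC41A2 (0.87), RPS29 (0.84) and EEF1B2 (0.83), and to CLDN4 RPS15A (0.84), LIMK1 (0.81) and SPATA6 (0.79). OCLN was followed most closely by TIMM22 (0.89), PPP1R15A (0.84) and LONRF1 (0.82), and F11R by GGA3 (0.83), RNF34 (0.81) and IL34 (0.81). TJP1 was closest to ETV6 (0.90), NFIB (0.87) and RMND5A (0.85), and TJP3 to CCDC61 (0.90), ERBB2 (0.88) and PODXL2 (0.88). For CLDN1, at few reads, the genes were IL1RN (0.91), EXPH5 (0.89) and PID1 (0.86).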

How the data were processed

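Per the labels and the study's methods, paired reads of an Illumina Hi-Seq instrument were mapped to the sheep genome in CLC Genomics Workbench. The authors deposited 1 table of 24691 features with read counts on exons and on whole genes, not normalized, for each library. The deposited RPKM divide these reads by exon length and by the library's reads on genes, and were recomputed from the counts to within 3.5e-07 of their value. The deposited normalized signal is the authors' RPKM after quantile normalization, with identical sorted values in every library. Fold changes and p-values of the authors' own Baggerly test are also in the table and were not used.

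Exon reads, or whole-gene reads for the 5583 features without a transcript, were tested in edgeR 4.0.16 (R 4.3.3) with filterByExpr, library sizes scaled by TMM and the quasi-likelihood F-test, without covariates. P-values were adjusted by Benjamini-Hochberg over all tested genes and called under 0.05. Intron reads are whole-gene less exon reads. Claudin shares were compared by exact permutation, without adjustment over the 5 claudins, and ratios to the epithelial reference by exact permutation with adjustment over all genes that had reads in every library. DESeq2 1.42.0 and limma 3.58.1 gave alternatives, other scalings, filters, references and left-out libraries among them. Fits within the lane in the column headers (7 or 8; every library was run on both lanes, per the labels), with lane as covariate and within each dam group were chosen after seeing the data. The members and lists were chosen with earlier results of these data known. Named genes are the 9 members, up to 3 called genes per list and direction with the largest change at a mean of at least 1 CPM, the nearest tested genes and the 3 genes of highest within-state correlation per member; CLDN11, CLDN12, CLDN15 and CDH1 were named after their values were seen, and some listed genes are not reported here. Intervals are 95% confidence intervals. They and the SE of log2 changes derive from the quasi-likelihood F-test, in which the spread between libraries is moderated over all tested genes. Strandedness of the library is not given in the sources used here. At least 99.66% of the exon reads of each member were placed uniquely. Whole reads without molecular identifiers were counted, and 18 to 68 or 5 to 20 reads per library limit CLDN1.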

Additional observations from a re-analysis of the deposited data

Results flagged for a closer look

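Of 46 groups of 4 to 10 libraries examined for a library standing apart from the rest of its state, 2 held one by Dixon's criterion, where chance gives about 1 in 20. The level of TJP1 in the lactation library MM 1 was 55.9 CPM, the lowest of 6, with the nearest at 64.6 CPM. The CLDN8 share of the claudin sum in the lactation library LM 2 was 11.7%, the lowest of 6, with the nearest at 16.6%. Without LM 2 or any other single library the CLDN8 share still differed by between -23.4 and -21.6 points.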

How the results depend on the processing

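Over 39 results, 540 of 573 values with 1 library left out kept direction and call. Of the other alternatives 218 did so, while 19 turned in sign, 9 counts moved, 9 values gained a call and 12 lost one. The CLDN8, CLDN7, OCLN and CLDN4 calls held without any single library (log2 -1.58 to -1.48, 0.43 to 0.51, 0.37 to 0.44 and -0.52 to -0.38). Values that turned and counts or calls that moved follow, and the cause was not tested. With library size alone 0 members were higher and 9 lower, with CLDN3 at -1.83, CLDN7 at -1.42, OCLN at -1.51 and TJP1 at -1.81. In quantile-normalized RPKM, at a pseudocount of 1 and 0.1, 5 were lower, with CLDN1 at 0.032 and 0.042, CLDN3 at -0.21 and -0.21, and TJP1 at -0.0024 and -0.0021, and TJP3 called; by this measure the CLDN1 share rose by 0.596 points (exact permutation p = 0.0304) and the log2 ratios to the epithelial reference were 0.13 for CLDN1 and -0.13 for CLDN3. With upper quartile scaling CLDN3 was at -0.078 and TJP1 at -0.047, and TJP3 was called, as it was without a filter (-0.19, adjusted p = 0.0464). Within lane 7 the number higher was 1, with CLDN1 at 0.19 and OCLN at 0.26 (adjusted p = 0.0529), and F11R was not called within lane 7 or 8 (adjusted p of 0.255 and 0.0858). In the column headers all LM libraries carry lane 8, so the fit within lane 7 held HM and MM libraries alone. CLDN1 was at 0.29 within HM and 0.070 within LM. With EPCAM and CDH1 as reference CLDN3 was at -0.022 and TJP3 passed, and with keratins alone 1 gene was higher. DESeq2 called 20 genes for dam nutrition and 19 for its interaction with state, and 2 without a filter for the latter.

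With 1 library left out, 8891 to 9049 genes were called, 2 to 3 members were lower and 2 to 2 higher, and 0 to 1 genes were called for dam nutrition and 0 to 10 for the interaction (10 without HM 2 and 2 without LM 2 of lactation). The log2 change of CLDN1 ranged from -0.15 to 0.10 and that of F11R from -0.18 to -0.14. The CLDN4 share ranged from -1.80 to -1.07 points (exact permutation p of 0.0170 to 0.129) and passed an unadjusted threshold of 0.05 without any 1 of 5 libraries. Ratios to the reference ranged from -0.24 to 0.014 for CLDN1, -0.052 to 0.056 for CLDN3 and -0.0077 to 0.10 for TJP1, with 1 to 2 members higher and 3 to 4 lower. For introns 1 to 2 members were lower and TJP1 ranged from -0.0014 to 0.084.

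The deviations of same-numbered pools of a dam group from their group means correlated at -0.02 to 0.07. With 2 lactation pools per dam group these deviations mirror each other, and which pools share an ewe was not given. Whether pool numbers pair the libraries therefore cannot be decided from these values. With the replicate block CLDN1 was at 0.017, F11R at -0.16 (edgeR adjusted p = 0.0642) and the CLDN3 share at 6.92 points (exact sign-flip p = 0.0625, where 0.03125 is the smallest possible), and no other call of a member changed.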
